A study of Homo sapiens with 8 samples.

Results

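The genes described here are 35 regulators of the cell cycle and of DNA replication, and the question is where chromatin bound by the kinase mTOR was found around them. A peak was counted for a gene when the authors' annotation named that gene as the nearest one and placed the peak within 50 kb of a transcription start site (TSS). This gave 109 peaks out of 125713 on chromosomes 1 to 22, X and Y, spread over 22 of the 35 genes. The cells were LNCaP, an established androgen-responsive line of human prostate cancer. In shFoxA1 cells a hairpin targets FoxA1, a pioneer factor of androgen receptor binding, and shEV cells carry the empty vector instead. All cells first spent 48 h in medium with 2% charcoal-stripped serum, which removes androgen. They then received either 10 nM of the synthetic androgen R1881 or the ethanol vehicle (EtOH, 0.1%) for 24 h. The 4 groups were shFoxA1 R1881, shFoxA1 EtOH, shEV R1881 and shEV EtOH, each with a single mTOR chromatin immunoprecipitation library. There is therefore no replicate check on any difference, and no test was made. The 4 input libraries were not analysed here, and binding data hold no measure of the FoxA1 level or of cell-type markers.

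The cell cycle is driven by cyclin-dependent kinases. D cyclins with CDK4 and CDK6, and E cyclins with CDK2, phosphorylate RB, which releases the E2F factors that switch on replication genes. The MCM helicase is then loaded at origins by CDC6 and activated with CDC45, and later CDK1 with B cyclins, PLK1 and the Aurora kinases carry cells through mitosis. In prostate cancer cells androgen is known to promote entry into this cycle, and mTOR signalling to promote growth before division.

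The promoters below were chosen to show what lay under the peaks with different patterns. Those of CDKN1B, CDC45 and MKI67 had a promoter peak in most or all lists. CDC6, with a promoter peak in shFoxA1 R1881, and CDC25A, with promoter peaks in both shFoxA1 lists, were added for contrast after their values were seen. Each stretch ends at the base before the gene's RefSeq start in build GRCh38.p14, runs 5′ to 3′ on the gene's strand and lies in no RefSeq gene. Capitals mark letters matching 3 motifs on either strand. These are the E2F site (TTTCCCGC, TTTCGCGC, TTTGCCGC or TTTGGCGC), the CCAAT box (CCAAT, or ATTGG on the other strand) and the cell cycle homology element (CHR, TTTGAA) of late cell cycle promoters.
CDKN1B, chr12:12717247-12717367, plus strand: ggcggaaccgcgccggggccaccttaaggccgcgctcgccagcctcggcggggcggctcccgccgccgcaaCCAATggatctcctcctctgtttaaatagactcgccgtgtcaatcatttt
CDC45, chr22:19479216-19479465, plus strand: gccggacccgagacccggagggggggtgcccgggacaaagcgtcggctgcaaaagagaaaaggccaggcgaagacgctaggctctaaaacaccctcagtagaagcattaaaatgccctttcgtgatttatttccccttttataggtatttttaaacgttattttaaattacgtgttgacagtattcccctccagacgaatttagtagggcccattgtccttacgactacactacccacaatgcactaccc
MKI67, chr10:128126424-128126673, minus strand: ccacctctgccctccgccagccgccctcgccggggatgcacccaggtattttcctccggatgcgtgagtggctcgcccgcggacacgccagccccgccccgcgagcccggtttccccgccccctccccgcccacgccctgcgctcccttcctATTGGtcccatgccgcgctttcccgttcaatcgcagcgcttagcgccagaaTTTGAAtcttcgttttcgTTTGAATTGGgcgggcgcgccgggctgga
CDC6, chr17:40287629-40287878, plus strand: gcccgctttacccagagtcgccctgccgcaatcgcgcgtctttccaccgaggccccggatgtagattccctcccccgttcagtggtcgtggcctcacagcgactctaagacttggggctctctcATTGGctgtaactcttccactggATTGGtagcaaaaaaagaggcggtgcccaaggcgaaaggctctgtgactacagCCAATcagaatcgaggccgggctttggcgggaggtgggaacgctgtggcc
CDC25A, chr3:48188418-48188667, minus strand: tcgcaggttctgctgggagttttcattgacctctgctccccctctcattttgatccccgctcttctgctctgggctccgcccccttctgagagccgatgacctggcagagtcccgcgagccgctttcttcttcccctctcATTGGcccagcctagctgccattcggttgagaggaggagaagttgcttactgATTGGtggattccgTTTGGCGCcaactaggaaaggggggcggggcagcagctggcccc

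The peaks of all 4 lists covered every base of the CDKN1B and CDC45 stretches. The MKI67 stretch was covered whole in shFoxA1 R1881, shEV R1881 and shEV EtOH and not at all in shFoxA1 EtOH. The CDC6 stretch was covered in shFoxA1 R1881 alone. The CDC25A stretch was covered whole in shFoxA1 R1881 and by 55.6% in shFoxA1 EtOH, and in neither shEV list. The CDKN1B stretch held 1 CCAAT box. The CDC6 stretch held 3, and the MKI67 stretch 2 CCAAT boxes and 2 CHR elements, of which 1 pair shared a base. CDC25A had 1 E2F site, 37 to 44 bases before its start, and 2 CCAAT boxes, while the CDC45 stretch matched none of the 3 motifs. Among 35116 RefSeq promoter windows of 250 bases, 2.79% held the E2F letters, 32% a CCAAT box and 13.3% the CHR. Of the 28 members with such a window 10, 20 and 6 held them. A member counted when any of its windows matched, so these counts of genes are not comparable with the shares of windows. A match is a description of letters and not of a bound site. Only exact matches to the words listed were marked, so near matches such as tttggcgg in the CDC6 stretch are not counted. Lack of a match thus does not mean that no site is there.

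Members with a peak within 50 kb numbered between 11 and 20 by list. Of the 35 genes 20 had a peak in shFoxA1 R1881 (57.1%, Wilson 95% interval 40.9 to 72.0), against 51.6% of the 20033 coding genes. In shFoxA1 EtOH 20 also did (57.1%), against 49.1% of coding genes. For shEV R1881 the count was 16 (45.7%, 30.5 to 61.8), against 37.5%, and in shEV EtOH it was 11 (31.4%, 18.6 to 48.0), against 36.5%. Each interval covers counting error only and takes in the share of all coding genes, so the members as a group were not set apart at this distance. The lists held 39570, 35121, 26074 and 24948 peaks in that order. With every list shortened to the 24948 best-scoring peaks, as many as shEV EtOH holds, the counts were 14 in shFoxA1 R1881 (40.0%, against 38.7% of coding genes) and 17 in shFoxA1 EtOH (48.6%, against 39%). They were 16 in shEV R1881 (45.7%, against 36.3%) and 11 in shEV EtOH (31.4%, against 36.5%). At equal length shFoxA1 R1881 thus had fewer such members than shEV R1881, the opposite of the order at full length. Read depth is unknown, and how far depth or enrichment set the length of a list was not tested.

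In shEV EtOH the share of members with a promoter peak was close to that of all coding genes, and in the other lists it was above it. A promoter peak here was assigned to the gene and annotated by the authors as a promoter, which could be a neighbour's. In shEV EtOH those of PCNA and CDKN1A were annotated to CDS2 and DINOL. A promoter peak was found at 13 members in shFoxA1 R1881 (37.1%, 23.2 to 53.7), against 18.5% of coding genes. It was found at 10 members in shFoxA1 EtOH (28.6%, 16.3 to 45.1), against 18.6%. In shEV R1881 there were 7 (20.0%, 10.0 to 35.9), against 9.79%, and in shEV EtOH 4 (11.4%, 4.54 to 26.0), against 10.3%. The members' intervals are wide. Those of shFoxA1 EtOH and shEV EtOH take in the background, and that of shEV R1881 starts just above it. At equal length, 6 members had a promoter peak in shFoxA1 R1881 (17.1%, against 11.2% of coding genes) and 7 in shFoxA1 EtOH (20.0%, against 12.9%). The shEV lists had 7 with R1881 (20.0%, against 9.2%) and 4 with EtOH (11.4%, against 10.3%). Within 10 kb of a TSS, 18, 17, 13 and 8 members had a peak in shFoxA1 R1881, shFoxA1 EtOH, shEV R1881 and shEV EtOH. These are 51.4%, 48.6%, 37.1% and 22.9% of the members, against 38%, 36.7%, 23.4% and 23.3% of coding genes. The members were thus below the background in shEV EtOH, and their interval takes in the background in every list.

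**Figure D1:**
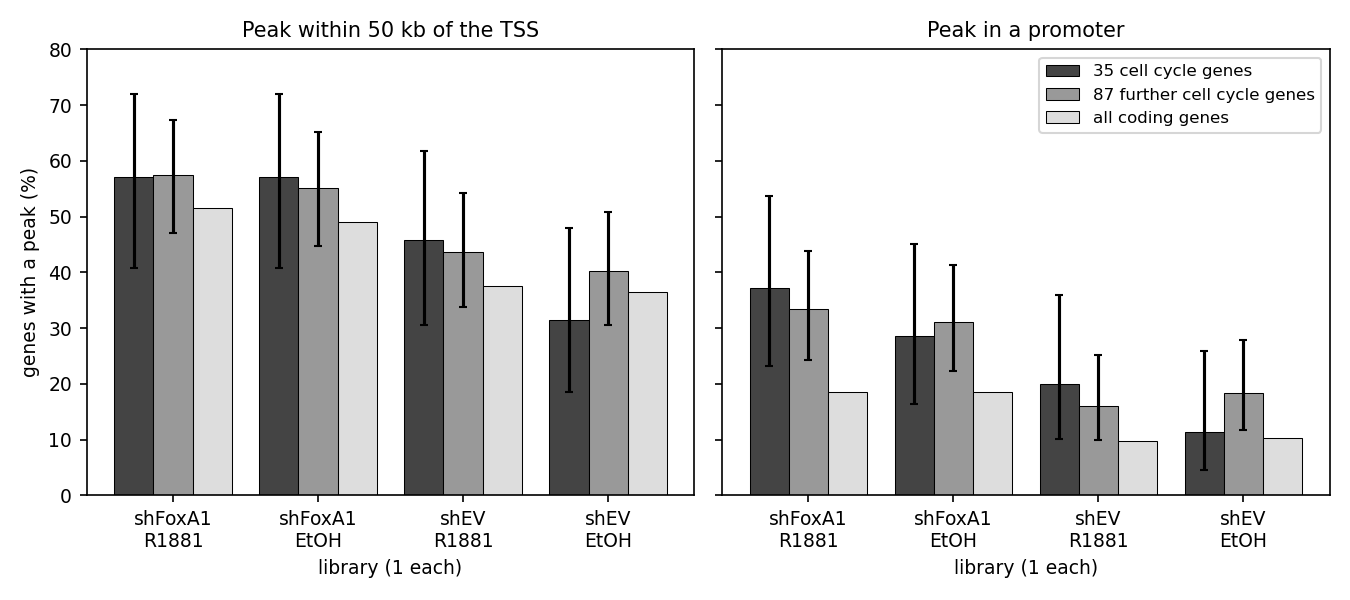
Share of genes with an mTOR peak in each library, in percent, for the 35 cell cycle genes, 87 further genes of the same pathway and all coding genes; whiskers are Wilson 95% intervals for the lists and cover counting error only. Promoter shares of the 35 genes were 37.1% in shFoxA1 R1881, 28.6% in shFoxA1 EtOH, 20.0% in shEV R1881 and 11.4% in shEV EtOH.

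Of the 87 further genes of the pathway, 50 had a peak within 50 kb in shFoxA1 R1881 (57.5%), 48 in shFoxA1 EtOH (55.2%), 38 in shEV R1881 (43.7%) and 35 in shEV EtOH (40.2%). In shEV EtOH they were thus above the 36.5% of coding genes, where the members were below it. The intervals of both lists take in that share, at 30.6 to 50.7 for the 87 genes and 18.6 to 48.0 for the members. A promoter peak was found at 29 in shFoxA1 R1881 (33.3%), 27 in shFoxA1 EtOH (31.0%), 14 in shEV R1881 (16.1%) and 16 in shEV EtOH (18.4%). The shares of coding genes with a promoter peak in those lists were 18.5%, 18.6%, 9.79% and 10.3%. Promoter peaks in all 4 lists were found at 6 of the 87 genes. They are the CDK inhibitor gene CDKN2C, the RB relative RBL1, the MuvB partner MYBL2, the origin recognition subunit ORC2, the single-strand binding protein RPA2 and the mitotic survivin gene BIRC5. The RBL1 promoter peak (chromosome 20) scored 281 in shFoxA1 R1881, 401 in shFoxA1 EtOH, 95 in shEV R1881 and 180 in shEV EtOH. BIRC5 (chromosome 17) scored 257, 200, 135 and 58 in the same order. The score is the authors' own value of a peak. Scores of the 4 lists are printed side by side, but whether they share a scale is unknown. They are therefore not compared between lists, and rank is given as a percentile among all peaks of a list. By that measure the BIRC5 peak stood at the percentiles 91.8, 87.4, 80.5 and 46.9.

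The members' peaks merged into 47 regions, of which 13 (27.7%) were present in all 4 lists, against 19.1% of the 28847 regions near coding genes. A single list held 17 of them (36.2%), against 46.8%. Both shFoxA1 lists and no shEV list held 8 (17%), against 8.39%. Both shEV lists alone held none, where 0.731% of all such regions are of that kind, so a count of 0 is near the background. Only shEV EtOH was missing at 2 (4.26%), against 5.01%. Both R1881 lists and no EtOH list held 3 (6.38%), close to the 5.25% of all such regions, and none was held by both EtOH lists alone, against 2.74%. A region counted as present when any peak overlapped it, whatever gene that peak was assigned to.

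**Figure D2:**
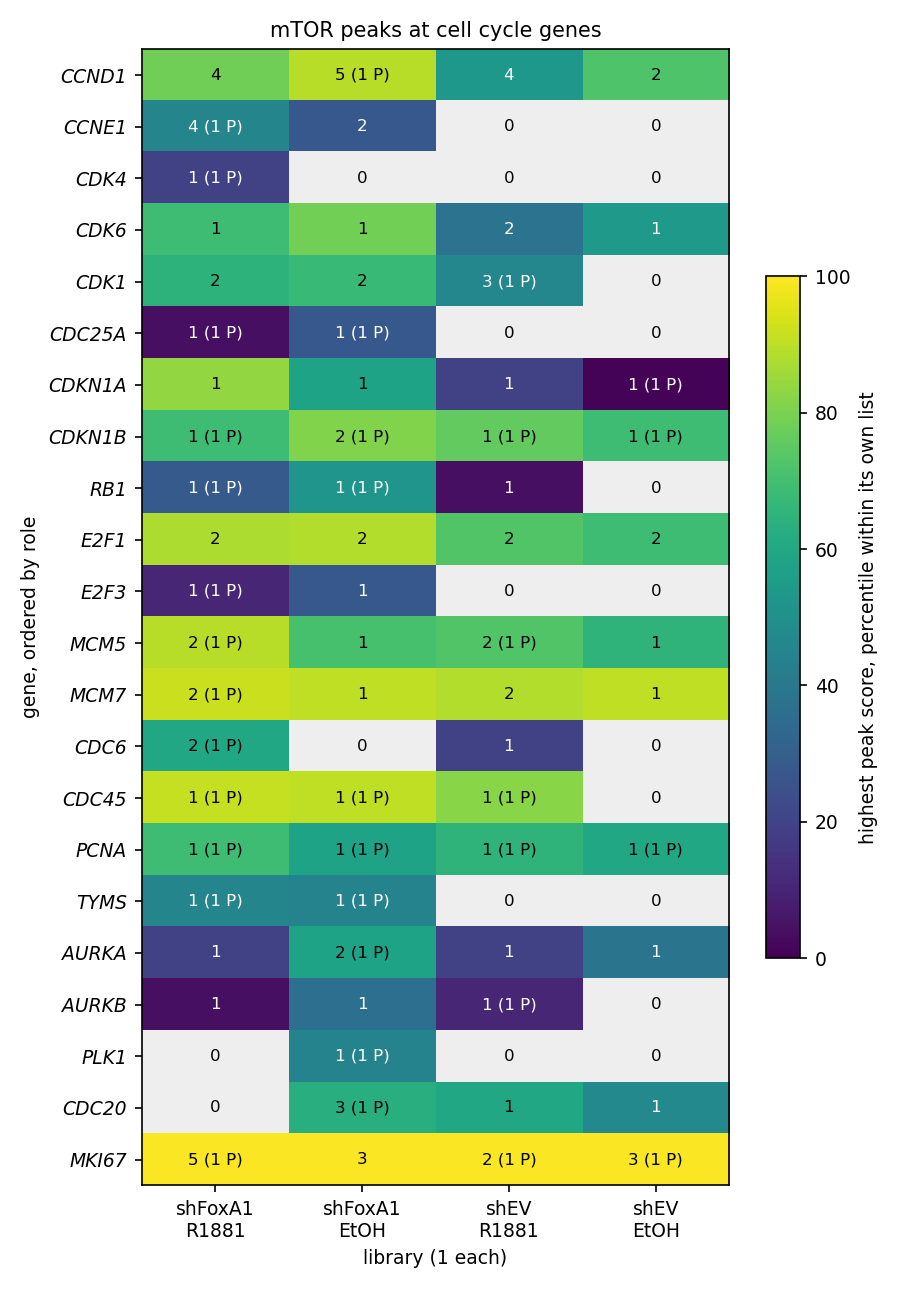
Number of peaks within 50 kb at each of the 22 genes with a peak in any list, by library, with the number in a promoter marked P. Colour gives the percentile of the highest-scoring peak within its own list and grey means no peak assigned to the gene. MKI67 stands at the top in every library, at percentiles of 99.5 or 99.6, and MCM7 at 88.6 to 91.8.

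Among the G1 cyclins and their kinases, the cyclin D1 gene CCND1 carried the most peaks. It had 4 in shFoxA1 R1881, 5 in shFoxA1 EtOH, 4 in shEV R1881 and 2 in shEV EtOH, on chromosome 11 (hg38). Upstream of the gene, in a CpG island at 69637914 to 69639647, a region lay in all 4 lists. Its peaks scored 122 in shFoxA1 R1881, 21 and 134 in shFoxA1 EtOH, 58 in shEV R1881 and 105 in shEV EtOH. A region over introns 1 and 2 and exon 3 (69642008 to 69644549) was also in all 4 lists. It scored 83 in shFoxA1 R1881, 223 in shFoxA1 EtOH, 34 and 42 in shEV R1881 and 34 in shEV EtOH. The start of CCND1 itself was covered only in the shFoxA1 lists, with a peak in the 5′ UTR in R1881 (score 41) and in the promoter in EtOH (score 42). At the end of the gene (69653292 to 69655544) peaks of 92, 113 and 67 were found in shFoxA1 R1881, shFoxA1 EtOH and shEV R1881. Only shEV EtOH lacked a peak there.

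CDK6, a partner kinase of cyclin D1, had a region in all 4 lists in the 5′ UTR of its exon 2 of 8 (chromosome 7, 92832655 to 92834138). It scored 92 in shFoxA1 R1881, 134 in shFoxA1 EtOH, 50 in shEV R1881 and 67 in shEV EtOH. CDK4 had a single promoter peak, 266 bp upstream of its TSS, in shFoxA1 R1881 (score 34, percentile 19.2). The cyclin E1 gene CCNE1 had 4 peaks in shFoxA1 R1881 and 2 in shFoxA1 EtOH, and none in either shEV list. Its start was marked at different places, by a promoter peak at -768 bp in shFoxA1 R1881 (34) and an intronic peak at 478 bp in shFoxA1 EtOH (42). CCNE2 and CDK2 had no assigned peak, though a peak of shFoxA1 EtOH assigned to NDUFAF6 (score 15) overlapped the CCNE2 gene.

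CDK1, the kinase of mitotic entry, had no peak in shEV EtOH and 2, 2 and 3 peaks in shFoxA1 R1881, shFoxA1 EtOH and shEV R1881. An intergenic region 9324 to 9423 bp upstream (chromosome 10, 60768711 to 60769267) was in both shFoxA1 lists, with scores of 83 in R1881 and 94 in EtOH. An intronic region (60781604 to 60782054) was in both R1881 lists, with scores of 20 in shFoxA1 and 58 in shEV. The start of the gene (60778388 to 60778819) had a peak in shFoxA1 EtOH (21) and in shEV R1881 (34) but in neither of the other 2 lists. CDC25A, the phosphatase that activates CDKs, had a promoter peak in shFoxA1 R1881 (20) and in shFoxA1 EtOH (42) and in no shEV list. Both of these peaks ranked low in their lists, at percentiles 4.0 and 27.7. The cyclin genes CCNA2 and CCNB1 had no peak in any list.

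Both CDK inhibitor genes had a region in all 4 lists. The promoter of CDKN1B (chromosome 12, 12716458 to 12717441) scored 92 in shFoxA1 R1881, 144 in shFoxA1 EtOH, 114 in shEV R1881 and 95 in shEV EtOH, at percentiles between 69.1 and 80.9. It was the only member other than PCNA with a promoter peak assigned to it in each list. CDKN1A, an inhibitor gene induced by p53, had peaks of 153 in shFoxA1 R1881, 75 in shFoxA1 EtOH, 34 in shEV R1881 and 14 in shEV EtOH (chromosome 6, 36678688 to 36681019). The shFoxA1 peaks there were broad, 2332 and 1941 bp wide, against 303 bp in shEV R1881 and 341 bp in shEV EtOH. The shEV EtOH peak was annotated as the promoter of the noncoding gene DINOL. The shEV peaks did not overlap each other, so the locus counts as both gained and lost with R1881 in shEV.

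**Figure D3:**
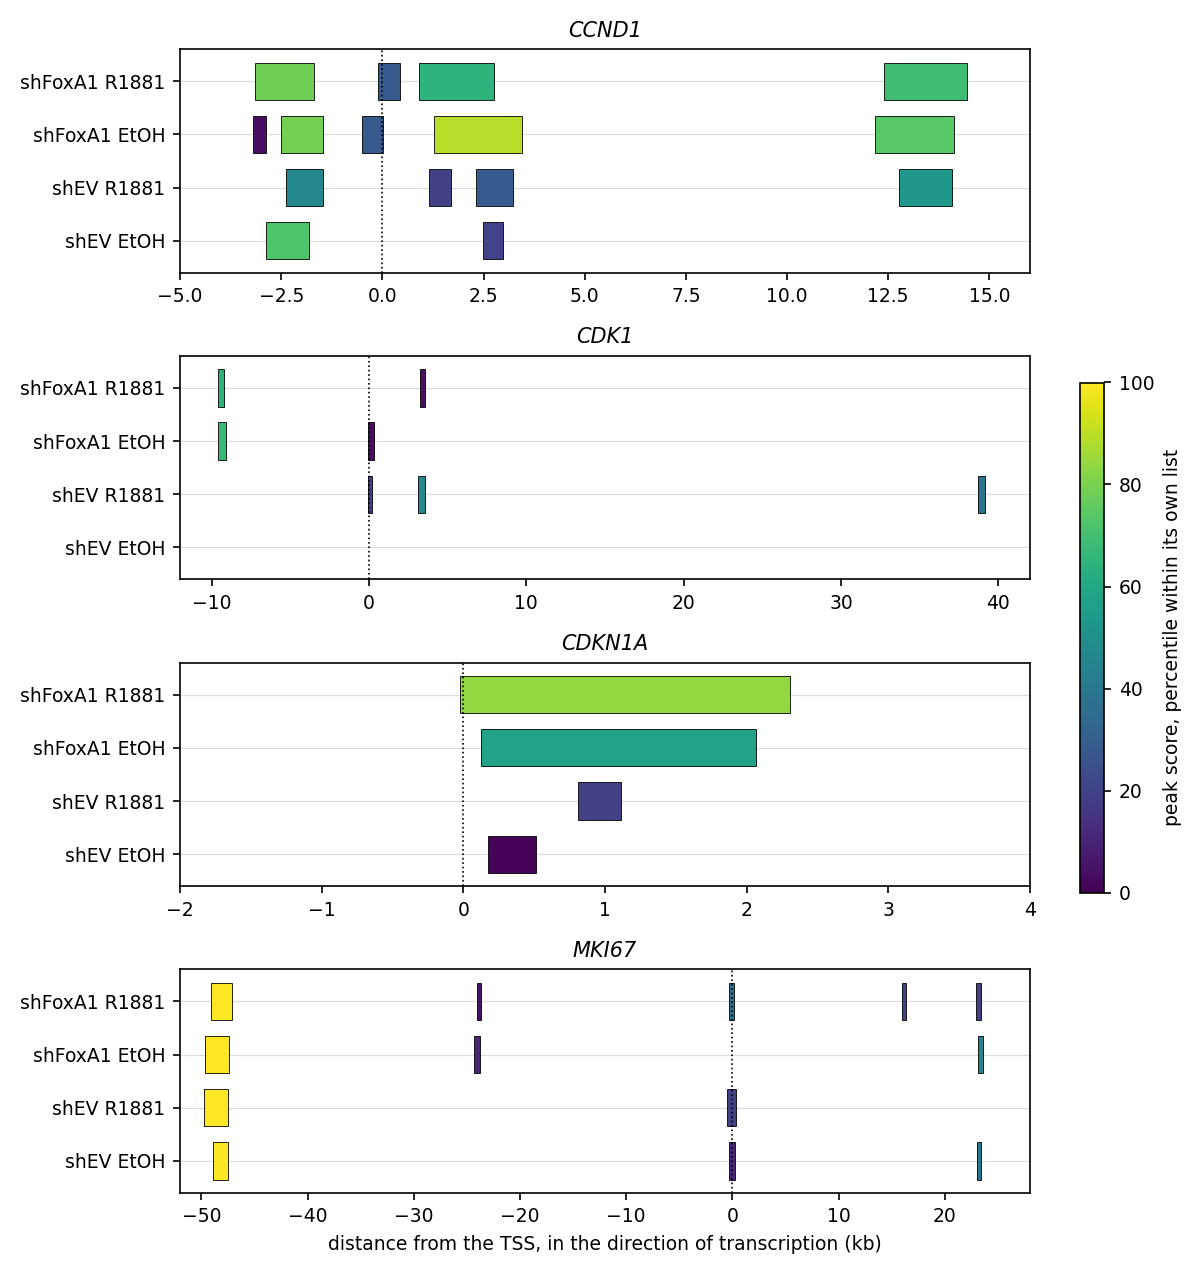
Peaks at CCND1, CDK1, CDKN1A and MKI67 in each library, drawn against the distance of the peak from the TSS given by the authors in kb, with each bar as wide as its peak (the narrowest widened to stay visible) and coloured by the percentile of its score within its list. CDK1 has no peak in shEV EtOH, and the farthest upstream MKI67 region is in all 4 libraries.

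RB1, the gene of the retinoblastoma protein, had a promoter peak in shFoxA1 R1881 (41) and in shFoxA1 EtOH (66) and in no shEV list (chromosome 13, 48303605 to 48304287). The EtOH peak was annotated to the divergent transcript RB1-DT. In shEV R1881 it had instead an intron 2 peak in an L1 repeat, at 18922 bp (score 20). A higher-ranked region in RB1 intron 17 of 26 (48391287 to 48391829 in shFoxA1 R1881) was found in both R1881 lists only, with scores of 142 in shFoxA1 and 238 in shEV. The authors assigned it to LPAR6, a receptor gene nested in RB1, so it is not among the 109 peaks. E2F1 had 2 regions in all 4 lists, 12524 to 14988 bp upstream of its TSS, and both lay in an SVA retroposon, a repeat of recent primate origin. The nearer one scored 186 in shFoxA1 R1881, 211 in shFoxA1 EtOH, 104 in shEV R1881 and 95 in shEV EtOH. How well reads map in such repeats was not assessed here. E2F3 had a promoter peak in shFoxA1 R1881 (27) and a 5′ UTR peak at another of its starts in shFoxA1 EtOH (42), and E2F2 had none.

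Of the replication genes, MCM7, a subunit of the helicase, had high-ranked peaks at its start in every list. The region at its exon 1 (chromosome 7, 100100317 to 100101084) scored 257 in shFoxA1 R1881, 247 in shFoxA1 EtOH, 202 in shEV R1881 and 239 in shEV EtOH. These values stood at percentiles from 88.6 to 91.8. A neighbouring region (100101405 to 100102146) scored 74 in shFoxA1 R1881, 66 in shFoxA1 EtOH and 95 in shEV R1881, and had no peak in shEV EtOH. The gene shares this stretch with AP4M1, which runs the other way, and the shFoxA1 EtOH peak was assigned to AP4M1. In the exon 1 region, the shFoxA1 R1881 peak was annotated as the AP4M1 promoter. CDC45, the helicase cofactor, had promoter peaks of 244 in shFoxA1 R1881, 247 in shFoxA1 EtOH and 146 in shEV R1881. Each was assigned to CDC45 but annotated as the promoter of UFD1, the gene on the other side of this promoter. In shEV EtOH a peak at the same place (score 42, percentile 29.2) was assigned to UFD1 itself. The CDC45 promoter was therefore present in all 4 lists, and the count of 11 members in shEV EtOH rises by 1 if it is counted.

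PCNA, the sliding clamp of DNA polymerases, had a peak in all 4 lists, which scored 92 in shFoxA1 R1881, 75 in shFoxA1 EtOH, 85 in shEV R1881 and 76 in shEV EtOH. It lay 416 to 524 bp inside PCNA and was annotated as the promoter of its divergent neighbour CDS2. MCM5, another helicase subunit, had a region in all 4 lists 33697 to 33838 bp downstream of its TSS (chromosome 22, 35433526 to 35434297). It scored 209 in shFoxA1 R1881, 103 in shFoxA1 EtOH, 104 in shEV R1881 and 85 in shEV EtOH. The MCM5 promoter had a peak in both R1881 lists, 20 in shFoxA1 and 42 in shEV, and in neither EtOH list. CDC6, the origin licensing factor, had a region over its start and intron 1 in both R1881 lists and in neither EtOH list (chromosome 17, 40287581 to 40289070). In shFoxA1 R1881 a promoter peak scored 34 and an intron 1 peak 74. The shEV R1881 peak (34) lay in intron 1, at 617 bp. The start of CDC6 itself was thus covered in shFoxA1 R1881 alone. MCM2, MCM3, MCM4 and MCM6 had no peak in any list. Of the 6 MCM genes, 2 thus had peaks.

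TYMS, which encodes thymidylate synthase, had a promoter peak in shFoxA1 R1881 (57) and in shFoxA1 EtOH (58) and in no shEV list (chromosome 18, 657313 to 658115). A region in its intron 3 of 5 was present in all 4 lists, with scores of 175, 166, 114 and 169 in shFoxA1 R1881, shFoxA1 EtOH, shEV R1881 and shEV EtOH. That region was assigned to the antisense gene TYMSOS, so it is not among the 109 peaks. RRM2, the gene of a ribonucleotide reductase subunit, had no peak.

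Among the mitotic genes the promoter peaks ranked in the lower part of their lists, at percentiles 3.8 to 44.8. AURKA, the Aurora A gene, had an intron 8 region in all 4 lists (chromosome 20, 56379813 to 56380950), with scores of 34 in shFoxA1 R1881, 75 in shFoxA1 EtOH, 34 in shEV R1881 and 50 in shEV EtOH. Its peaks were annotated to an Alu or an L1 repeat. Promoter peaks were found at AURKA (21), PLK1 (58) and CDC20 (27) in shFoxA1 EtOH, and at AURKB (27) in shEV R1881. Each of these was in a single list, and the AURKA peak was annotated to its divergent neighbour CSTF1. BUB1, UBE2C and TOP2A had no peak.

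MKI67, the gene of the proliferation marker Ki-67, held the highest score of all members. The region 48110 to 48605 bp upstream (chromosome 10, 128173567 to 128176161) scored 1648 in shFoxA1 R1881, 1934 in shFoxA1 EtOH, 1823 in shEV R1881 and 1845 in shEV EtOH. It ranked at percentile 99.5 or 99.6 in every list, was annotated to an LTR14B endogenous retrovirus repeat in 2 lists, and lies just inside the 50 kb limit. The nearest assigned peaks beyond that limit were at RB1 (51075 bp, score 27) and CDK6 (56342 bp, score 103). At the MKI67 promoter (128126089 to 128126895) the peaks were lower, 49 in shFoxA1 R1881, 34 in shEV R1881 and 27 in shEV EtOH, and shFoxA1 EtOH had none. In exon 13 of 15 a region was present in all lists but shEV R1881, with scores of 34 in shFoxA1 R1881, 58 in shFoxA1 EtOH and 50 in shEV EtOH.

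The androgen comparison asks which of these peaks appear or disappear with R1881. A peak is called gained here when the R1881 list has it and no EtOH peak overlaps it, and lost in the reverse case. Both words describe presence in a thresholded list, not measured occupancy. In shFoxA1 cells 11 of 35 member peaks were gained (31.4%, against 43% of all peaks near coding genes) and 9 of 33 were lost (27.3%, against 34.9%). With lists of equal length 4 of 20 were gained (20.0%, against 37.5%) and 9 of 24 lost (37.5%, against 36.4%). The members' balance in shFoxA1 then turns round, while among all peaks near coding genes the gained share stays slightly above the lost one. In shEV cells 12 of 26 were gained (46.2%, against 46.1%) and 2 of 15 were lost (13.3%, against 42.4%). At equal length these were 11 of 25 gained (44.0%, against 44.4%) and 2 of 15 lost (13.3%, against 43.5%). The gained share in shEV was thus that of the background, and the lost share rests on 2 peaks, at MKI67 and CDKN1A. The 87 further genes did not share the low lost share, with 22 of 44 peaks lost (50%). The loci gained in both hairpins were a CDC6 region, the MCM5 promoter and the CDK1 intron. At CDC6 the shEV peak lay in intron 1, and only shFoxA1 also gained a peak over the start. In shFoxA1 R1881 the MCM5 and CDK1 peaks stood at percentile 4.0 and the CDC6 peaks at 19.2 and 59.4. Promoter peaks of MKI67, CDK4, CCNE1 and E2F3 were gained in shFoxA1, at percentiles 37.4, 19.2, 19.2 and 10.6. Those of AURKB and CDK1 were gained in shEV, at 10.6 and 19.3. Promoter peaks of PLK1, CDC20 and AURKA were lost in shFoxA1, at percentiles 44.8, 10.1 and 3.8 of shFoxA1 EtOH. In shFoxA1, 6 of 13 member promoter peaks were gained (46.2%, against 28.7% of all promoter peaks near coding genes). There 3 of 10 were lost (30%, against 29.6%). In shEV 3 of 7 were gained (42.9%, against 38.9%) and 1 of 4 lost (25%, against 42.8%). Shortening a list by score removes peaks of low rank first. The difference between the hairpins was not tested.

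The knockdown comparison asks the same of the FoxA1 hairpin. With R1881, 15 of 35 member peaks were gained (42.9%, against 54.6%) and 6 of 26 were lost (23.1%, against 25.5%). With lists of equal length 4 of 20 were gained (20.0%, against 39.4%) and 8 of 25 lost (32.0%, against 35.5%), which turns the members' balance round but not that of all peaks near coding genes. With EtOH, 18 of 33 were gained (54.5%, against 51.2%) and 1 of 15 was lost (6.67%, against 25.3%), the MKI67 promoter peak. At equal length 9 of 24 were gained (37.5%, against 38.2%) and 1 of 15 lost (6.67%, against 34.3%). Of the 87 further genes' peaks, 12 of 44 were lost with EtOH (27.3%). Gained in both treatments at full length were regions at the starts of CCND1, RB1, TYMS and CDC25A, the upstream CDK1 region, and regions at CCNE1, AURKB and MKI67. Most of these ranked low in shFoxA1 R1881. There CDC25A, AURKB and MKI67 stood at percentile 4.0, CCNE1 at 19.2, and CCND1 and RB1 at 28.4. TYMS stood at 45.6 and the upstream CDK1 region at 64.7. Shortening a list by score removes its lowest-ranked peaks first, so these names hold for the full lists. Among all peaks near coding genes the gained share also exceeded the lost share in both treatments. The 4 comparisons share libraries with each other, so their counts are not independent.

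**Figure D4:**
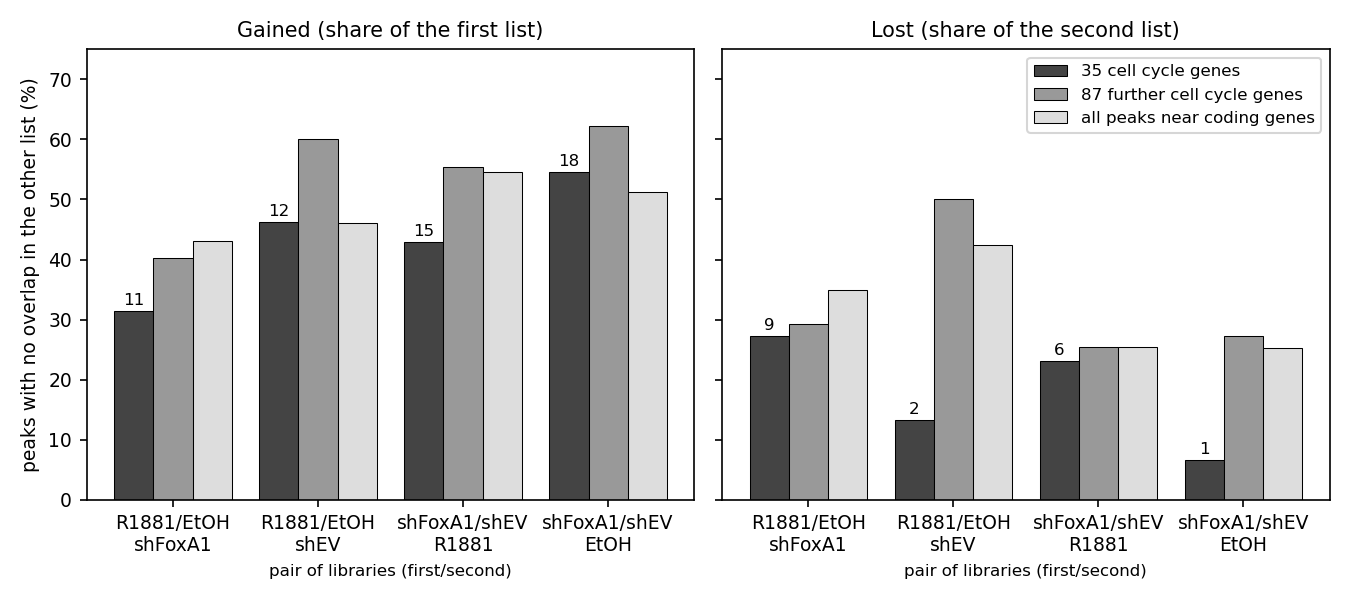
Peaks with no overlap in the other list, as a percentage of the first list of each pair (gained) or of the second (lost), for the 35 cell cycle genes with the number of peaks above the bar, the 87 further genes and all peaks near coding genes. With R1881 in shEV, 12 member peaks were gained and 2 lost; in shFoxA1, 11 were gained and 9 lost.

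GC content, repeats and promoter annotation of the member peaks were set beside those of all peaks near coding genes, which met the same 50 kb limit. Promoter annotation depends on the position of a peak near a TSS, so it is not independent of that limit. The median GC content of member peaks was 63.3% in shFoxA1 R1881, 63.5% in shFoxA1 EtOH, 58.1% in shEV R1881 and 64.6% in shEV EtOH. All peaks near coding genes had medians of 49.7%, 51.6%, 46.1% and 47.6%. Annotation to a repeat was found at 22.9% of member peaks in shFoxA1 R1881 (Wilson 95% interval 12.1 to 39.0), against 48.3% of peaks near coding genes, and at 18.2% in shFoxA1 EtOH (8.61 to 34.4), against 46.6%. In the shEV lists it was 34.6% with R1881 (19.4 to 53.8), against 55.9%, and 33.3% with EtOH (15.2 to 58.3), against 55.1%. The interval of shEV EtOH takes in its background. Promoter annotation was found at 37.1% of member peaks in shFoxA1 R1881 (23.2 to 53.7), against 19.6%, and 30.3% in shFoxA1 EtOH (17.4 to 47.3), against 22.5%. Under shEV it was 26.9% with R1881 (13.7 to 46.1), against 16.6%, and 26.7% with EtOH (10.9 to 52.0), against 18.8%. The intervals of the 3 lists other than shFoxA1 R1881 take in the background, so no difference in promoter annotation was detectable there. All intervals for repeats and promoters treat peaks as independent, though 1 gene held up to 5 of them in a list. They may therefore be too narrow, and whether any of these shares differs from its background was not tested. Over the 4 lists, 49 of the 51 member peaks within 1 kb of a TSS lay above the median GC of all peaks near coding genes in their list, and 41 of the 58 farther out did. A region found in several lists enters these counts once per list, so they are not counts of separate sites. How far GC, repeats and distance depend on each other was not tested. The members' scores were ordinary, with median percentiles of 45.6, 52.0, 42.1 and 54.1 within the lists of shFoxA1 R1881, shFoxA1 EtOH, shEV R1881 and shEV EtOH.

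**Figure D5:**
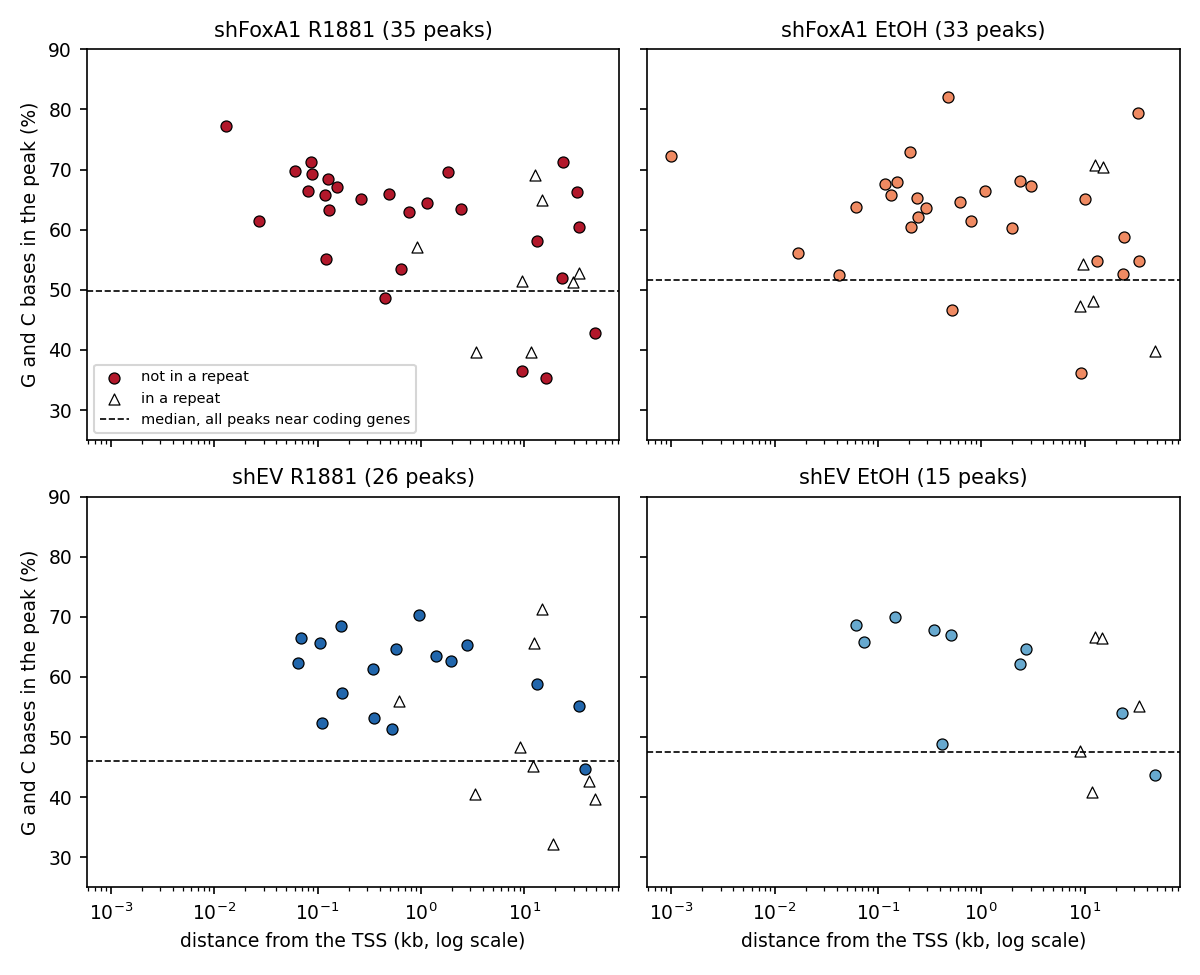
GC content of each member peak, in percent, against its distance from the TSS in kb on a log scale, 1 panel per library; triangles are peaks annotated to repeats and the dashed line is the median of all peaks near coding genes (49.7% in shFoxA1 R1881, 47.6% in shEV EtOH). Of the 51 peaks within 1 kb of a TSS, 49 lie above the line, with a region found in several lists counted in each.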

How the data were processed

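Peak lists of 4 mTOR immunoprecipitations were used, 1 library per group, and nothing in the labels gives replicates. The submitters' processing notes name hg38 and, with no roles, deepTools 3.5.0, HOMER 4.11.1, MACS2, Picard 2.0.1, BWA 0.7.12 and Trimmomatic 0.36. Each list is a HOMER annotation per the file headers, and all names in it share 1 library tag, which means calling by library. The sources used here do not say how peaks were called or scored. The score is a deposited value. GC content, deposited as a fraction, is printed in percent. The lists give no read totals, so depth is unknown.

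Peaks on chromosomes 1 to 22, X and Y were analysed with pandas 2.3.3 and numpy 2.4.6. An overlap of at least 1 bp made peaks shared, and overlapping peaks of all lists were merged into regions. The overlap code was tested on simulated intervals. Wilson intervals came from scipy 1.17.1. Coding genes, gene extents and promoter sequences came from RefSeq tables of GRCh38.p14; all 35 members and 87 further genes matched a symbol, and 28 members had a promoter sequence.

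The members and lists were chosen with earlier results of these data known. Members were named in detail where they had a promoter peak, a region in all 4 lists, or a region that followed treatment or hairpin, and otherwise by their highest-scoring peak. PCNA, whose peaks lie inside the gene and not over its upstream stretch, has no sequence printed, and the CHR motif was added after values were seen. Genes outside the members were named where a promoter peak was in all 4 lists or where a peak over a member was assigned to them. Alternatives were another overlap, distance, score limit, repeat filter, merging distance and promoter definition, and lists of equal length. The peaks upstream of the CDC20 promoter are counted but not reported in detail here.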

Additional observations from a re-analysis of the deposited data

Results flagged for a closer look

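The start of CDK1, covered by peaks centred 133 bp from the TSS in shFoxA1 EtOH and 64 bp in shEV R1881, went opposite ways with androgen in the 2 hairpins. It had no peak in shFoxA1 R1881, so it was lost with R1881 in shFoxA1, while in shEV it was gained (score 34, none in EtOH). Each direction rests on 1 library a group and on peaks that ranked low in their lists, at percentiles 3.8 in shFoxA1 EtOH and 19.3 in shEV R1881, and the difference was not tested. Opposite calls in the 2 hairpins were made at 3.61% of all regions near coding genes.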

How the results depend on the processing

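Of 68 recomputed counts 40 stayed within 1.5 times the reported one. Keeping only the top 10000 peaks per list by score, members with a peak numbered 7 in shFoxA1 R1881, 7 in shFoxA1 EtOH, 8 in shEV R1881 and 7 in shEV EtOH, and regions 15, of which 3 were in all 4 lists. Gained and lost peaks were then 2 and 5 for R1881 in shFoxA1, which turns that balance round, and 4 and 1 for R1881 in shEV. For shFoxA1 they were 2 and 5 with R1881, which turns that balance round too, and 5 and 2 with EtOH. With 50% reciprocal overlap, lost peaks were 15 for R1881 in shFoxA1, 4 for R1881 in shEV and 3 for shFoxA1 with EtOH, and shFoxA1 with R1881 had 23 gained and 14 lost. Within 10 kb, shFoxA1 with R1881 had 9 gained and 3 lost, and R1881 in shEV 1 lost. Without repeats, 7 members had a peak in shEV EtOH, and 3 peaks were lost for shFoxA1 with R1881. With lists cut to the 24948 peaks of the shortest, chosen after seeing the data, gained peaks were 4 for R1881 in shFoxA1, 4 for shFoxA1 with R1881 and 9 for shFoxA1 with EtOH. Promoter peaks were then at 6 members in shFoxA1 R1881. Within 1000 bp of a TSS, 11 members had a peak in shEV R1881. Fewer peaks enter most of these settings by their construction; other causes were not tested. No paired analysis was possible because each group is 1 library and no test was made. Depth is unknown, so an absent peak may be one below the authors' threshold.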

Other observations

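Peaks over members that the authors assigned to other genes add to the picture given by the 109 assigned peaks. In an intron of CDC45 a region assigned to the claudin gene CLDN5 was present in all 4 lists, with scores of 244 in shFoxA1 R1881, 348 in shFoxA1 EtOH, 95 in shEV R1881 and 340 in shEV EtOH. RB1 had further peaks assigned to LPAR6 in shFoxA1 R1881, with scores of 41 at both places. Beyond 50 kb, 11 peaks were assigned to members, 10 of them to CDK6. An intronic CDK6 region 56342 to 56426 bp from the TSS was in all 4 lists, with scores of 83 in shFoxA1 R1881, 103 in shFoxA1 EtOH, 67 in shEV R1881 and 85 in shEV EtOH. A further CDK6 region, at -117704 and -117640 bp, was in both R1881 lists, with scores of 112 in shFoxA1 and 104 in shEV, and no peak assigned to CDK6 lay there in either EtOH list.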
